A study of Mus musculus with 36 samples.

Results

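The Hedgehog pathway was described here through 9 genes, *Shh*, *Ihh*, *Dhh*, *Ptch1*, *Smo*, *Gli1*, *Gli2*, *Gli3* and *Hhip*, out of 21938 protein-coding genes annotated on the mouse chromosomes. They were chosen by name, as the ligands, receptors, transcription factors and inhibitor at the core of the pathway. The measurements are lists of ChIP-Seq peaks for H3K27me3 (K27me3), a histone mark laid down by EZH2 and linked to gene silencing, and for H3K4me3 (K4me3), a mark found at active or poised gene starts. Whole pancreata of 12 mice were profiled 22 days after tamoxifen given by oral gavage, from animals treated at 2 to 4 months of age, with 3 mice in each of 4 genotypes. WT mice are labelled Wildtype and EZ mice Mist1creERT/+EZH2[delta]SET. KR mice carry the Mist1creERT driver with another inducible allele, and KE mice carry the driver with that allele and Ezh2[delta]SET together. The Mist1creERT driver acts in acinar cells, the enzyme-producing cells of the pancreas, where tamoxifen removes the catalytic SET domain of *Ezh2*, acts on the KR allele, or does both. All groups received tamoxifen, and the methods describe controls as mice with neither floxed *Ezh2* nor the KR allele, some of them carrying the driver. Because the whole organ was used, fewer cells with a mark and less mark per cell cannot be told apart.

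Hedgehog ligands are secreted proteins that bind PTCH1, a membrane receptor that keeps SMO silent in their absence. Once released, SMO signals to the GLI transcription factors, of which GLI3 is chiefly a repressor, GLI2 chiefly an activator, and GLI1 an activator whose gene is itself a target of the pathway. HHIP binds the ligands at the cell surface and limits the signal, and *Ptch1*, *Gli1* and *Hhip* are all transcribed in response to it. In the embryo, *Shh* is kept out of the pancreatic bud while *Ihh* and *Dhh* are present in the organ.

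The starts of these genes differ in base composition, which is shown here because CpG-rich starts are the usual sites of K4me3 and of K27me3. RefSeq promoter sequences (GRCm38.p6, the build of the peaks) were available for 7 of the 9 genes. The 250 bases before the RefSeq start are printed for 4 of them, with each CpG dinucleotide in capitals, since they span the patterns of marks described next: *Ptch1*, with K4me3 in every mouse, *Hhip*, with K4me3 in 11 mice, and *Gli3* and *Dhh*, with no K4me3 within 3 kb of a start in any mouse.
Ptch1, chr13:63565736-63565985, minus strand: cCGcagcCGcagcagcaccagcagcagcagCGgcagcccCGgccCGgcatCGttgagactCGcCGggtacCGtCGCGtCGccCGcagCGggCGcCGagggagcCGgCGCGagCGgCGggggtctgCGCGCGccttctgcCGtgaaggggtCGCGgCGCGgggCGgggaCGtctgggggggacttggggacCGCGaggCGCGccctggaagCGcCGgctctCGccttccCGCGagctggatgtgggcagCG
Hhip, chr8:80058009-80058258, minus strand: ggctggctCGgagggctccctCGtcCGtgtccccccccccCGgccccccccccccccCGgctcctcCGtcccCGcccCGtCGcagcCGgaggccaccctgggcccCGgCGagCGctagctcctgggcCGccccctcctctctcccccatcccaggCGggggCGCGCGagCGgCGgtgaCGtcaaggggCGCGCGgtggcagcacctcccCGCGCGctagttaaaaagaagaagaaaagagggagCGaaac
Gli3, chr13:15463473-15463722, plus strand: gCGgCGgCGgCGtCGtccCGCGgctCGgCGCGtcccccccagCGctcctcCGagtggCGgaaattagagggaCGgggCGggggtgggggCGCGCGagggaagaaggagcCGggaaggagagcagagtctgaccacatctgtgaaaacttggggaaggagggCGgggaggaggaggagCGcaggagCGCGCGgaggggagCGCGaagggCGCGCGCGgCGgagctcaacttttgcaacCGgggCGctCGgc
Dhh, chr15:98898541-98898790, minus strand: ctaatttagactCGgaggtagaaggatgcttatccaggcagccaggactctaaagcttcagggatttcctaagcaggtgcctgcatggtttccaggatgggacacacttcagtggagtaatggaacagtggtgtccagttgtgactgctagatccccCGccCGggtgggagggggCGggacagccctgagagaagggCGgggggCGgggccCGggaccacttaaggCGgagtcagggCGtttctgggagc
For *Ptch1* and *Gli3* this start lies inside the GENCODE gene model, 7.86 and 0.49 kb after the gene start from which distances are counted here, at another annotated start of the same gene. Counted over the 300 bases of each table entry, which run 50 bases past the start, *Ptch1* held 47 CpG dinucleotides, *Gli3* 39, *Ihh* and *Hhip* 30 each, *Gli2* 28, *Smo* 17 and *Dhh* 12. The median of 20150 protein-coding promoters in the same table was 13. *Gli3* therefore had more CpG dinucleotides than 94.4% of promoters and *Ptch1* more than 98.2%, although their marks were opposite, as the peak lists show. The GLI core motif GACCACCCA, searched on both strands, was in none of the 7 promoters and in 0.144% of all of them.

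The 12 K27me3 lists held 21420 to 31274 peaks and the 12 K4me3 lists 17400 to 26081, with no read count or height, so the depth behind each peak is unknown. A gene counted as marked in a mouse if a peak lay at least partly within 3 kb of any of its annotated starts. K4me3 lay at the start of *Ezh2* in all 12 mice, which does not check its deletion, because the floxed exons lie elsewhere in the gene. All 9 acinar marker genes carried K4me3 in all 12 mice. Of the other lists, *Ins1*, *Ins2*, *Gcg*, *Sst* and *Chga* (islet cells), *Col1a2* and *Des* (mesenchyme), *Cdh5* (endothelium) and *Adgre1* (macrophages) had no K4me3 at a start in any mouse. WT replicate 2, KR replicate 1 and KE replicate 1 stood apart from the other 9 mice. Summed K4me3 at 3 immune marker genes was 6.86 kb in WT replicate 2, 7 kb in KR replicate 1 and 3.51 kb in KE replicate 1, against 0 to 0.501 kb in the other 9. *Ptprc*, the leukocyte antigen CD45, was marked in these 3 mice and by a peak of the least possible width in EZ replicate 2. *Cd3e*, of T cells, was marked in WT replicate 2 and KR replicate 1. At 9 acinar genes the sum was 29.7 kb, 42 kb and 50.1 kb in these 3 mice, and 51.9 to 58.1 kb in the others. At 3 endothelial genes it was 5.7 kb, 5.4 kb and 1.88 kb against 1.06 to 1.75 kb, at 5 duct genes 8.81 kb, 15.7 kb and 15.1 kb against 16.6 to 19 kb, and at 7 mesenchymal genes 7.35 kb, 8.37 kb and 5.71 kb against 5.27 to 7.78 kb. Of 6 islet genes, *Neurod1* alone was marked, in every mouse but WT replicate 2. The part of this difference in the results was not tested, and the counts at starts by genotype and the comparisons between genotypes are given with and without these mice. On the X chromosome, the 3 KR mice and EZ replicate 2 had 10 to 35 K27me3 peaks and the other 8 mice 5637 to 7367. K27me3 coats the inactive X of female cells, the labels give no sex and the methods describe both sexes, so that in every comparison with KR genotype and sex cannot be told apart. The 9 Hedgehog genes are on autosomes.

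K27me3 at the Hedgehog genes was seldom called in all 3 mice of a genotype, as over all genes. *Gli3* was the sole gene of the 9 with K27me3 at a start in all 3 mice of a genotype, in WT and in KE. No gene met this in EZ or KR. Over all protein-coding genes, 5.78% met it in WT, 7.39% in EZ, 8.33% in KR and 9.94% in KE, so that 1 or 0 of 9 genes is near this background. Without WT replicate 2, KR replicate 1 and KE replicate 1 the counts were again 1 in WT, 0 in KR and 1 in KE, against 8.36%, 10% and 11.2% of all genes.

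**Figure D1:**
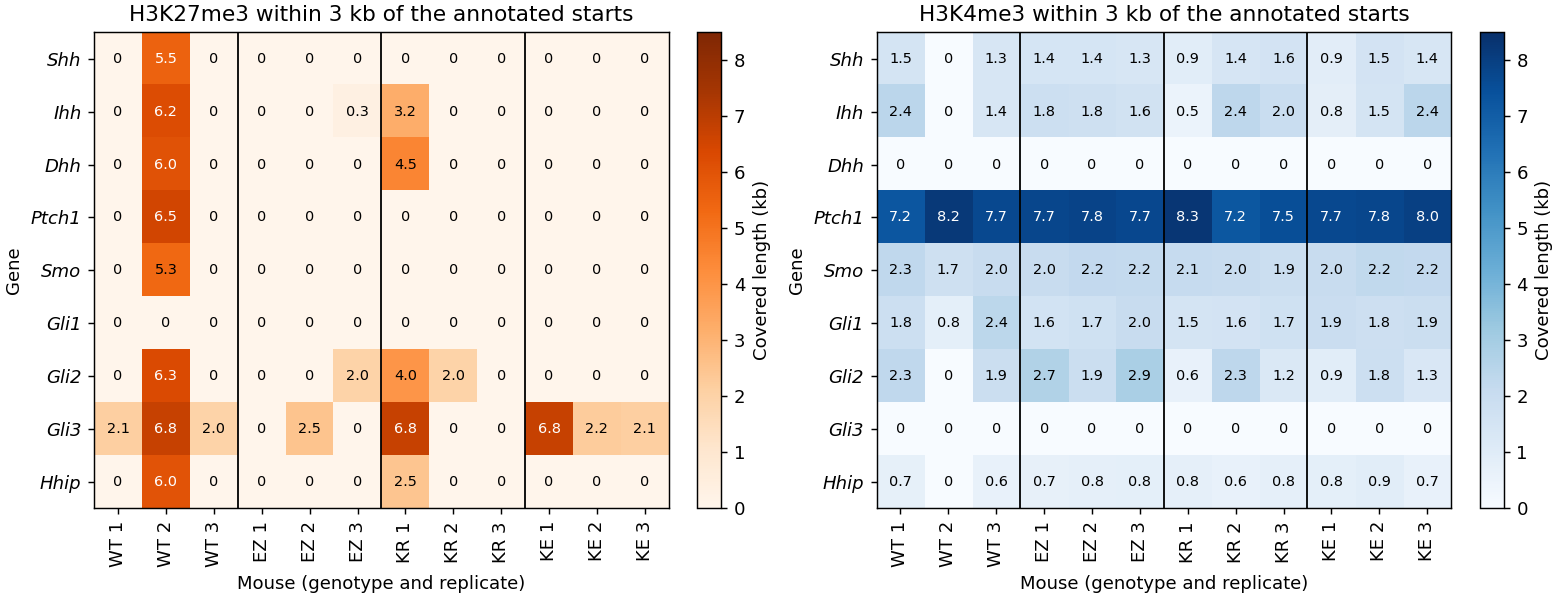
Length under K27me3 peaks (left) and K4me3 peaks (right) within 3 kb of the annotated starts of the 9 Hedgehog genes (rows) in each of the 12 mice (columns), in kb, printed in each cell. K27me3 is concentrated in WT replicate 2 and KR replicate 1, whereas K4me3 is present in nearly every mouse at all genes except *Dhh* and *Gli3*.

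Counted mouse by mouse, 8 of the 9 genes had K27me3 in WT replicate 2 and 5 in KR replicate 1, while the other 10 mice had 0 to 2. In WT the counts were 1, 8 and 1, against 10.6%, 24.6% and 13.4% of all genes in replicates 1, 2 and 3. In EZ they were 0, 1 and 2, against 14.1%, 12.3% and 15.6%. In KR they were 5, 1 and 0, against 15.4%, 12.8% and 13.9%. In KE each mouse had 1, against 15.8%, 15.4% and 13%. WT replicate 2 thus had the most Hedgehog genes under K27me3 and also the most genes in all, whereas KR replicate 1, with 5 of 9, had about as many genes in all as several mice with 0 to 2.

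**Figure D2:**
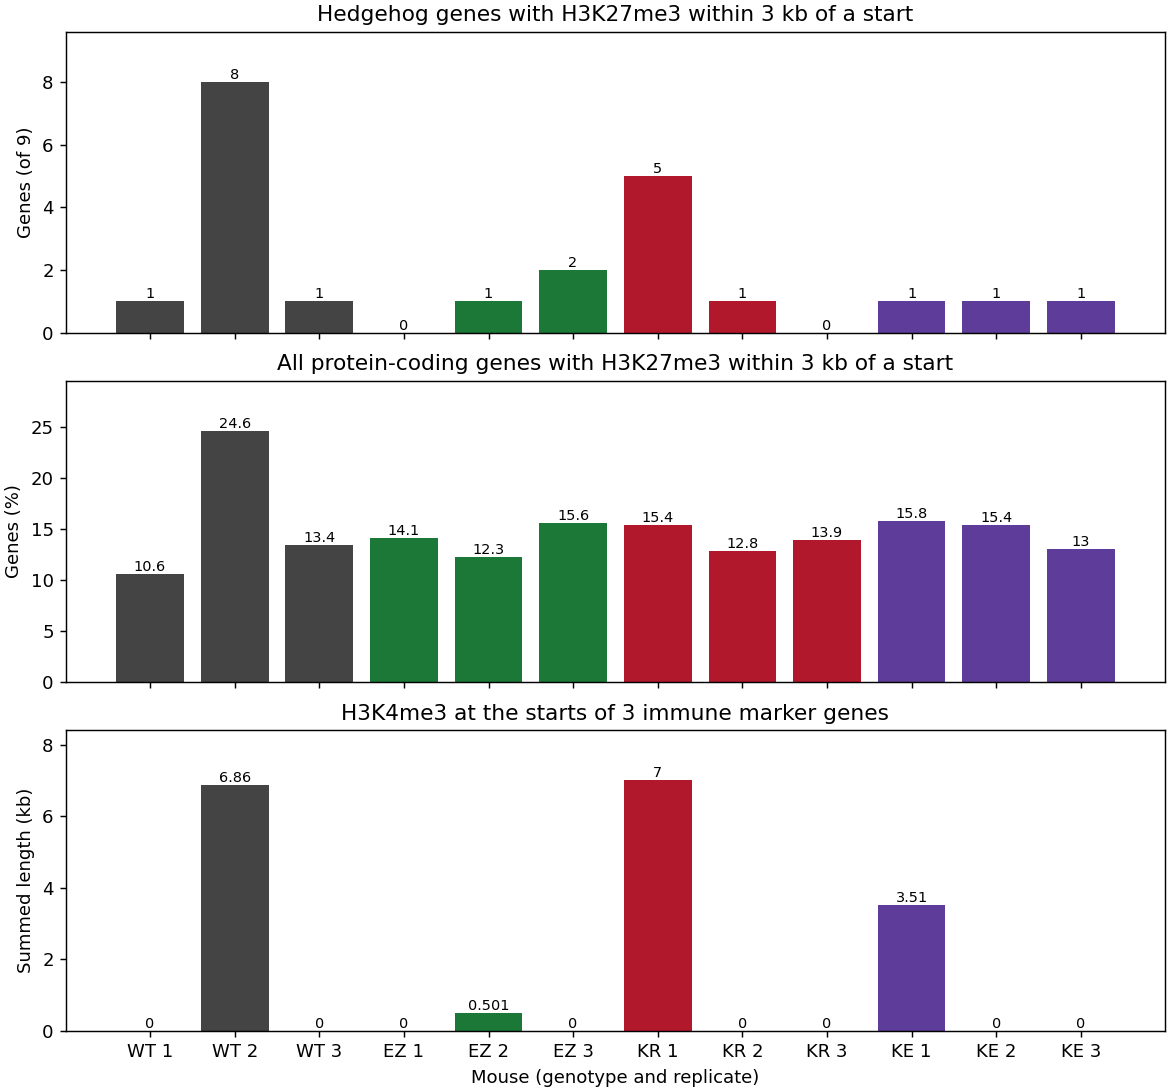
For each of the 12 mice, colored by genotype, the number of Hedgehog genes with K27me3 within 3 kb of a start (top), the percentage of all protein-coding genes with it (middle), and the summed length of K4me3 at the starts of 3 immune marker genes in kb (bottom). The 2 mice with 8 and 5 Hedgehog genes under K27me3 are the 2 with the longest immune K4me3, 6.86 and 7 kb. KE replicate 1, next at 3.51 kb, has 1 such gene.

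Among the ligands, *Shh* (chr5:28456815-28467256) lay under a 17 kb K27me3 peak in WT replicate 2, from 2.52 kb before its start to 14.49 kb after it. In KR replicates 1 and 3 a peak of 5 kb, the least width the K27me3 lists hold, covered the 3' part of the gene, from 6.32 and 6.65 kb after the start, outside the window around the start. The other 9 mice had no K27me3 over *Shh*. K4me3 at *Shh* showed the reverse pattern, being called in 11 mice and missing in WT replicate 2. It did not lie on the annotated start but in the gene, between 1.45 and 3.69 kb downstream and wholly in intron. The annotated start nearest to this region, 562 bp away, was that of another gene, *Gm26894*. The length within 3 kb of the *Shh* start was 1.48, 0 and 1.34 kb in WT, 1.43, 1.44 and 1.33 kb in EZ, 0.903, 1.41 and 1.56 kb in KR and 0.876, 1.53 and 1.38 kb in KE. The 2 lowest values after the 0 of WT replicate 2 belonged to KE replicate 1 and KR replicate 1.

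*Ihh* (chr1:74945315-74951672) likewise had K4me3 inside the gene, though here the nearest annotated start was its own. A K4me3 peak lay 1.22 to 3.14 kb inside the gene in 11 mice, almost entirely in intron, and a smaller peak on the start itself was called in WT replicate 1, KR replicates 2 and 3 and KE replicate 3. K4me3 covered 2.4, 0 and 1.38 kb in WT, 1.84, 1.78 and 1.62 kb in EZ, 0.501, 2.35 and 1.96 kb in KR and 0.799, 1.49 and 2.42 kb in KE. K27me3 in WT replicate 2 formed overlapping peaks of 19 and 18.3 kb that took in the whole gene and the start of its neighbor *Cfap65*. KR replicate 1 had a peak of 9.76 kb ending 0.20 kb after the start, EZ replicate 3 one of 5 kb ending 2.70 kb before it, and KE replicate 1 one of 12.7 kb that lay wholly beyond the gene, 0.66 kb past its 3' end.

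*Dhh* (chr15:98891152-98898540) had no K4me3 within 3 kb of a start in any mouse. The K4me3 peak called in all 12 mice at this locus lay 3.54 to 4.95 kb downstream and included an annotated start of the neighboring gene *Rhebl1*, which overlaps *Dhh*. K27me3 covered the start in WT replicate 2, as a 10.1 kb peak, and in KR replicate 1, as a 5 kb peak, and in no other mouse.

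The receptor gene *Ptch1* (chr13:63508328-63573598) had the longest K4me3 of the 9. A peak of 1.23 to 1.89 kb lay on the gene start and another of 6.2 to 6.7 kb lay 4.50 to 11.30 kb downstream, in all 12 mice. The region of the wider peak held 5 further annotated starts of *Ptch1* and also a start of another gene, *A930032L01Rik*. Peaks at least as wide as this wider peak made up 0.816% to 1.48% of the K4me3 peaks of the same mouse. Another peak 23.91 to 25.03 kb inside the gene, in intron, was called in 10 mice, and was missing in WT replicate 2 and KE replicate 1. The summed length at the starts was 7.24, 8.17 and 7.67 kb in WT, 7.74, 7.85 and 7.73 kb in EZ, 8.29, 7.21 and 7.51 kb in KR and 7.67, 7.75 and 7.96 kb in KE. These ranges overlapped in every pair of genotypes. K27me3 was called at *Ptch1* in WT replicate 2 alone, as a 19.4 kb peak that extended 14.21 kb upstream and overlapped K4me3 by 2.43 kb, 2.2 kb of it within 3 kb of a start.

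*Smo* (chr6:29735503-29761365), the signal transducer, also carried K4me3 in all 12 mice. It covered 2.27, 1.74 and 2.05 kb in WT, 2, 2.22 and 2.16 kb in EZ, 2.12, 2.01 and 1.9 kb in KR and 2.01, 2.24 and 2.2 kb in KE. WT replicate 2 had the shortest K4me3 and the sole K27me3 peak, of 7.32 kb, which covered 1.74 kb of K4me3, its whole length in that mouse.

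**Figure D3:**
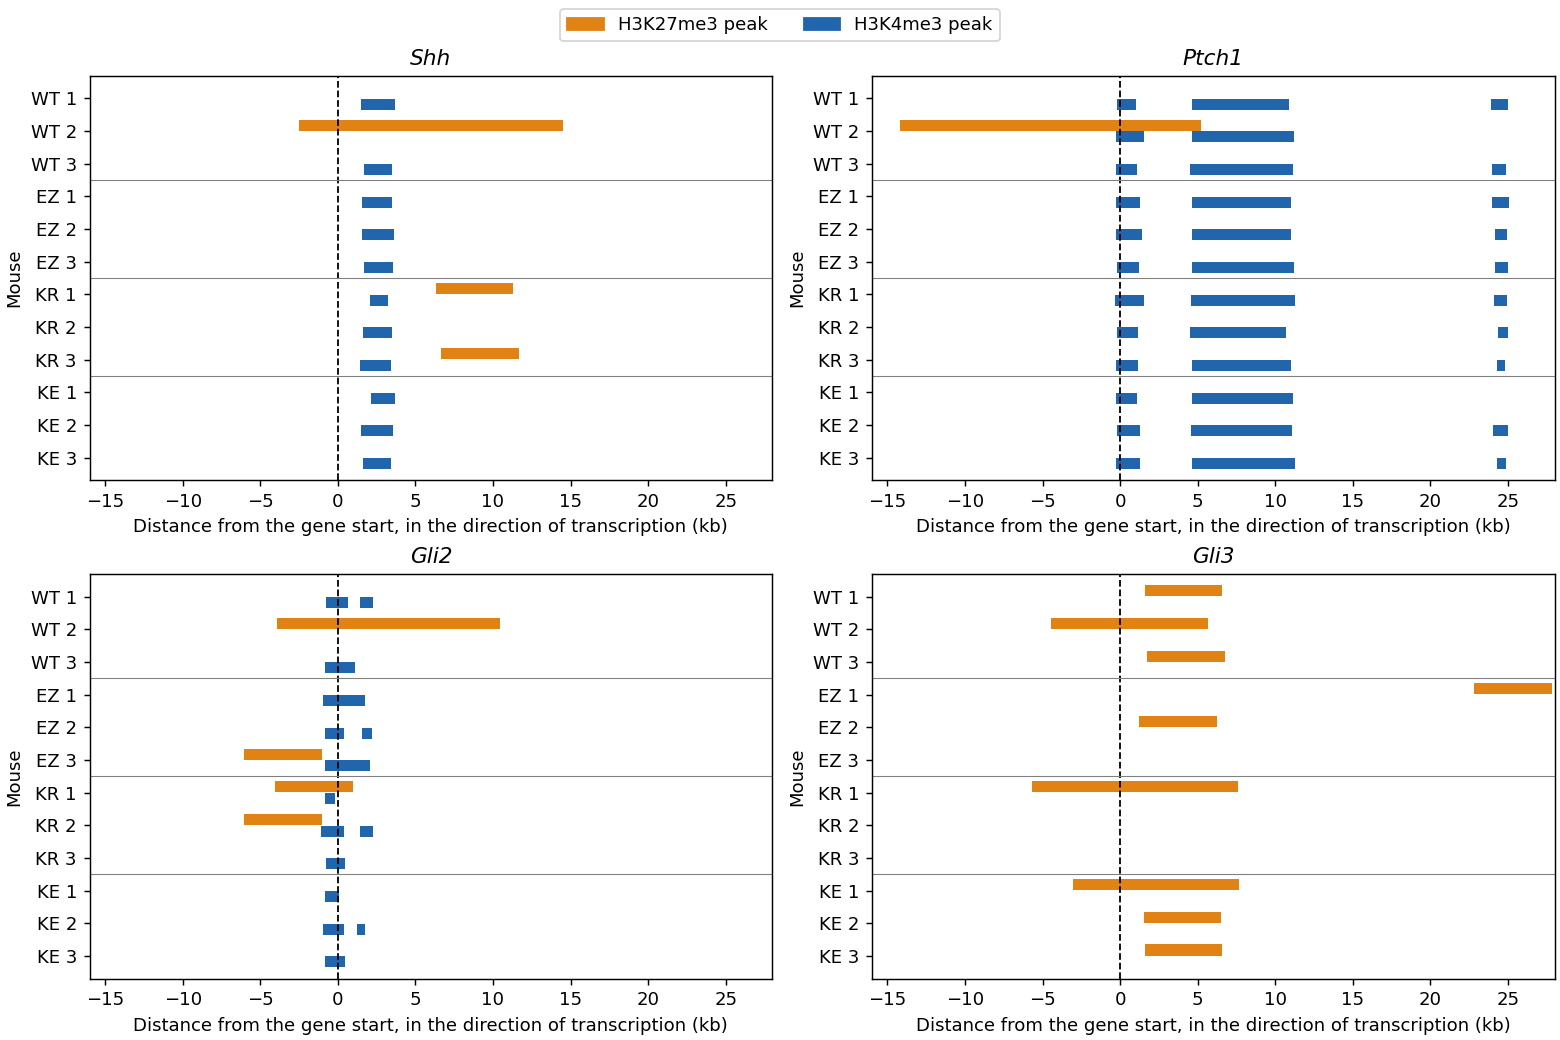
Peaks of K27me3 (orange) and K4me3 (blue) in each of the 12 mice around *Shh*, *Ptch1*, *Gli2* and *Gli3*, plotted by distance in kb from the gene start (dashed line) in the direction of transcription. K27me3 spans the start of all 4 genes in WT replicate 2, and the K4me3 of *Shh* and *Gli2* is missing there while that of *Ptch1* is kept.

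The 3 *Gli* genes had 3 different patterns. *Gli1* (chr10:127329882-127341974), the target of the pathway, had no K27me3 anywhere over the gene body and 3 kb on either side in any mouse, WT replicate 2 included. K4me3 at *Gli1* formed a peak on the start, from 0.62 kb before it to 0.37 kb after it, in 11 mice, and a peak between 1.35 and 3.12 kb downstream in all 12. The summed length was 1.83, 0.777 and 2.36 kb in WT, 1.59, 1.72 and 2.04 kb in EZ, 1.52, 1.56 and 1.71 kb in KR and 1.93, 1.8 and 1.86 kb in KE. WT replicate 2, the lowest of the 12, lacked the peak on the start.

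*Gli2* (chr1:118834132-119053619) was the gene at which the marks were most often called in the same mouse. K4me3 was called in 11 mice and crossed the gene start in 10 of them, since in KR replicate 1 it ended 0.16 kb before it. It covered 2.27, 0 and 1.91 kb in WT, 2.66, 1.91 and 2.87 kb in EZ, 0.631, 2.34 and 1.25 kb in KR and 0.922, 1.83 and 1.27 kb in KE. K27me3 was called within 3 kb of the starts in 4 mice. It formed a 14.4 kb peak over the start in WT replicate 2, where K4me3 was missing, and a 5 kb peak from 4.04 kb before to 0.96 kb after the start in KR replicate 1, where it covered all 0.631 kb of K4me3. In EZ replicate 3 and KR replicate 2, a peak of the same width ended 1.04 kb before the start, beside the K4me3 rather than on it, with an overlap of 0 and 0.047 kb. The WT, EZ, KR and KE ranges of K4me3 overlapped in all 4 comparisons.

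*Gli3* (chr13:15463235-15730026) was marked by K27me3 alone. No K4me3 peak was called over the gene or 3 kb beyond it in any of the 12 mice. K27me3 near the starts was called in 8 mice, with 2.15, 6.75 and 1.99 kb of the 6.75 kb window covered in WT, 0, 2.52 and 0 kb in EZ, 6.75, 0 and 0 kb in KR, and 6.75, 2.24 and 2.15 kb in KE. The window was fully covered in WT replicate 2, KR replicate 1 and KE replicate 1, where the domain spanned the start. In the other 5 mice a peak of 5 kb began 1.23 to 1.76 kb after the start, in the same place in WT, EZ and KE. With a window of 1 kb, *Gli3* was therefore called in all 3 mice of KE but not of WT, and with equal numbers of the widest peaks taken from each list the WT count also fell to 0. A further K27me3 region at the 3' end, 266.57 to 277.97 kb downstream of the start, was called in 6 mice. In KE replicate 1 the peak crossed the end of the gene, and in WT replicates 1 and 3, EZ replicate 2, KR replicate 2 and KE replicate 2 it lay wholly beyond it, beginning 0.48 to 2.43 kb past the end.

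*Hhip* (chr8:79965851-80058006), the inhibitor of the ligands, had a narrow K4me3 peak of 0.626 to 0.927 kb on its start in 11 mice. K27me3 was called there in WT replicate 2, as an 11 kb peak over the start and without K4me3, and in KR replicate 1, as a 6.29 kb peak beginning 0.52 kb after the start and overlapping K4me3 by 0.132 kb.

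K4me3 within 3 kb of a start was called in all 3 mice at 3 genes in WT, *Ptch1*, *Smo* and *Gli1*, and at 7 genes in each of EZ, KR and KE, *Shh*, *Ihh*, *Gli2* and *Hhip* being the additional 4. Over all protein-coding genes the share was 58% in WT, 60.8% in EZ, 60% in KR and 59.9% in KE. The lower WT count rested on WT replicate 2, in which 3 of the 9 genes were called against 60.4% of all genes. Without that mouse 7 genes were called in WT, the same 7 as in the other genotypes, against 61.5% of all genes. KR and KE kept these 7 without their replicate 1, against 60.7% and 61.1%. *Shh* and *Ihh*, whose peaks lie inside the gene, were no longer called in all 3 mice of any genotype with a window of 1 kb. No Hedgehog gene had both marks at a start in all 3 mice of any genotype, against 1.22% of all genes in WT, 1.64% in EZ, 1.95% in KR and 2.65% in KE. None had both without the 3 mice that stood apart, against 1.75% in WT, 2.28% in KR and 3.16% in KE. In single mice both marks were called at *Ptch1* and *Smo* in WT replicate 2, at *Ihh*, *Gli2* and *Hhip* in KR replicate 1, at *Ihh* and *Gli2* in EZ replicate 3, and at *Gli2* in KR replicate 2. In these 4 mice both were called at 12.4%, 5.76%, 4.9% and 3.01% of all genes, in the same order.

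The comparisons between genotypes ask whether loss of EZH2 activity, the KR allele, or their combination changed the marks at these genes. For K27me3, measured as the length covered over the gene body and 3 kb on either side, the values of the mice overlapped for all 9 genes in all 4 comparisons. Over all genes, the mice did not overlap at 1.74% in EZ against WT, 3.89% in KR against WT, 2.43% in KE against WT and 5.67% in KE against KR. Over the 20807 autosomal genes alone these shares were 1.82%, 1.83%, 1.49% and 2.42%. Without the 3 mice that stood apart, the values of all 9 genes again overlapped in all 4 comparisons, against 4.19%, 10.6%, 8.67% and 10.3% of all genes, and 4.38%, 8.59%, 7.05% and 7.21% of autosomal genes, that did not. The EZ, KR and KE groups each share the same 3 WT mice. The median difference over the 9 genes was -3.16 kb in EZ against WT, -1.78 kb in KR against WT and -3.16 kb in KE against WT, beside -0.41, -0.26 and -0.38 kb over the genes with K27me3 in at least 1 mouse. The 3 medians over the 9 genes were 0.00 kb without the 3 mice, and those over the same wider set of genes were 0.00 kb as well. Over the genes with K27me3 in at least 1 of the remaining 9 mice they were 0.80, 0.82 and 0.26 kb. The *Gli3* locus had the highest mean K27me3 length of the 9, a length not scaled to gene size, and *Gli3* is also the longest of these genes, at 267 kb. The covered length was 7.53, 8.68 and 5.91 kb in WT, 11.3, 5.58 and 0 kb in EZ, 10.6, 2.02 and 10 kb in KR and 23.9, 7.19 and 10 kb in KE. Part of it lay in peaks between the start region and the 3' region, called in 1 or 2 mice each and mostly of the least width. Such peaks made up all of the length in EZ replicate 1 (from 22.82 and 253.41 kb after the start) and KR replicate 3 (from 104.59 and 229.89 kb). They also added to it in KE replicates 1 and 3. The means were 7.37 kb ± 1.39 in WT, 5.61 kb ± 5.63 in EZ, 7.53 kb ± 4.78 in KR and 13.7 kb ± 8.96 in KE (SD, n = 3 mice each). The exact permutation test, two-sided, gave p = 0.7 for EZ against WT, p = 1 for KR against WT, p = 0.3 for KE against WT and p = 0.6 for KE against KR. With 3 mice against 3 this test cannot give a p below 0.1. The KE mean rested on KE replicate 1 and was 8.6 kb without it, and the EZ mean was 2.79 kb without EZ replicate 1 and 8.42 kb without EZ replicate 3. Without the 3 mice that stood apart, the WT and KR means were 6.71 and 6.01 kb, and the exact permutation p was 0.7, 1, 0.667 and 1 in the same 4 comparisons, in which 2 or 3 mice a group remained.

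For K4me3 within 3 kb of the starts, the mice of no Hedgehog gene were separate in EZ, KR or KE against WT, where 7.43%, 4.63% and 4.7% of all genes were. In KE against KR, *Gli1* was the single gene of 9 whose mice did not overlap, against 5.43% of all genes. Its K4me3 was longer in KE, with 1.86 kb ± 0.067 against 1.6 kb ± 0.103 (SD, n = 3 mice each), a difference of 0.266 kb (two-sided exact permutation p = 0.1, the lower limit of the test). The separation was lost with equal numbers of the widest peaks, with the gene model start alone and with nearby peaks merged, where the difference was 0.589, 0.199 and 0.0943 kb. With the replicate number as a block, *Gli1* was again the single gene, among 16.2% of all genes. *Gli2* had the largest difference against WT, 2.48 kb ± 0.501 in EZ against 1.39 kb ± 1.22 in WT (SD, n = 3 mice each; exact permutation test, p = 0.2), and the WT value included the 0 of replicate 2. Without that mouse the WT mean was 2.09 kb, and the difference fell from 1.09 to 0.39 kb. Without the 3 mice that stood apart, *Ptch1* was separate in EZ and KE against WT and *Ptch1*, *Smo* and *Gli1* in KE against KR, each higher in the former. The *Gli1* difference in KE against KR was then 0.194 kb. *Smo* and *Gli1* were then lower in KR than in WT, and *Gli2* lower in KE than in WT. With so few mice 14.7%, 24.6%, 22.5% and 24.6% of all genes were separate in EZ, KR and KE against WT and in KE against KR.

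At *Hhip*, K4me3 was also called inside the gene. The length over the gene body was added as a measure after the *Hhip* values were seen, so it is given as a description, with no test. Over the gene body and 3 kb on either side, K4me3 covered 1.86, 0 and 1.58 kb in WT, 3.97, 3.49 and 4.2 kb in EZ, 2.18, 3.82 and 2.59 kb in KR and 1.92, 3.68 and 2.51 kb in KE. All mice of EZ, KR and KE were above all WT mice, EZ by a wide margin and KE replicate 1 by little. The means were 3.89 kb ± 0.362 in EZ, 2.86 kb ± 0.856 in KR and 2.7 kb ± 0.894 in KE, against 1.15 kb ± 1 in WT (SD, n = 3 mice each). They were 3.21 kb in KR, 3.09 kb in KE and 1.72 kb in WT without the 3 mice that stood apart. By this measure the mice of 8.91%, 4.24% and 4.64% of all genes were separate in EZ, KR and KE against WT, and 5.43% in KE against KR, where *Gli1* was again the sole Hedgehog gene. The 1 gene of 9 is near these shares. Omitting the 3 mice gave 1, 5, 2 and 3 separate genes in the 4 comparisons, and 16.1%, 26%, 24.1% and 25.9% of all genes. *Hhip* was among them, and higher, in each of those against WT. The others against WT were lower, *Dhh*, *Ptch1*, *Smo* and *Gli1* in KR and *Gli2* in KE. *Ptch1*, *Smo* and *Gli1* were higher in KE than in KR. An intronic peak 74.89 to 76.43 kb downstream of the *Hhip* start (chr8:79981574-79983118) was called in the 3 EZ mice, KR replicates 2 and 3 and KE replicate 2, and in no WT mouse. A further peak 26.15 to 26.77 kb downstream, at the least width of the K4me3 lists, was called in EZ replicates 1 and 3, KR replicate 2 and KE replicates 2 and 3. The peak near the 3' end, 82.65 to 84.31 kb downstream, was called in every mouse but WT replicate 2. The difference between EZ and WT was 2.74 kb with all mice and 2.17 kb without WT replicate 2, and every EZ mouse remained above WT replicates 1 and 3, in which both the start and the 3' peak were called.

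**Figure D4:**
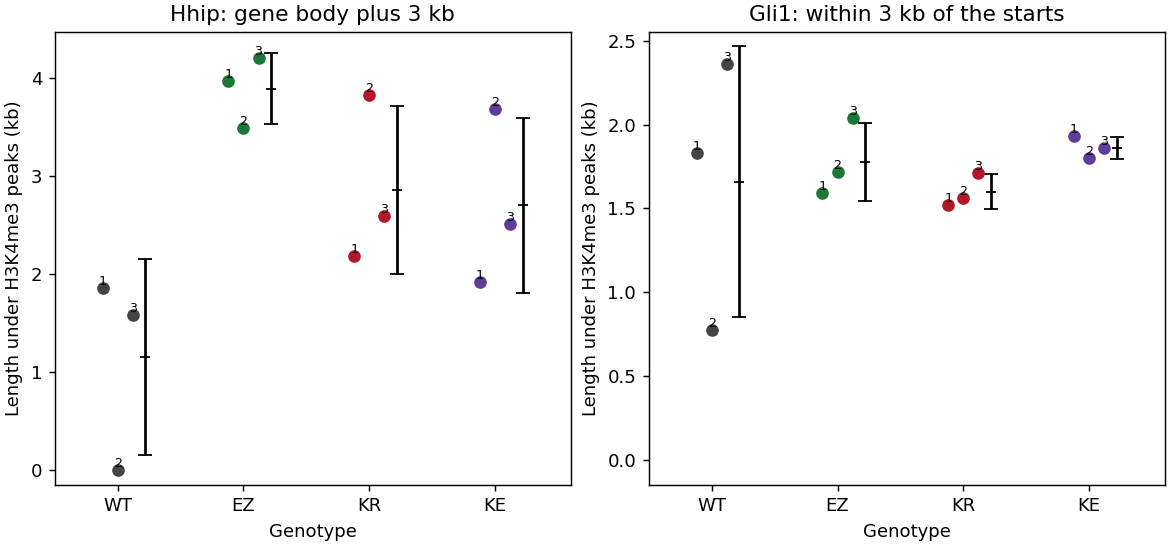
Length under K4me3 peaks in kb over the *Hhip* gene body and 3 kb on either side (left) and within 3 kb of the *Gli1* starts (right), by genotype, with each mouse as a point numbered by replicate and the mean ± SD of 3 mice beside it. The 3 EZ mice reach 3.49 to 4.2 kb at *Hhip* against 0 to 1.86 kb in WT, and at *Gli1* the 3 KE mice lie above the 3 KR mice.

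Beyond the core genes, 36 other genes of the pathway were examined in the same way. K4me3 was called in all 12 mice at 23 of them, against 56.9% of all genes. By class it was called at 3 of 6 genes for ligand processing and release, 3 of 6 receptors and co-receptors, 11 of 14 genes of intracellular transduction and 6 of 10 targets. In transduction, *Sufu*, the protein that holds GLI in the cytoplasm, and *Kif7*, *Kif3a* and *Ift88*, of the cilium through which the signal passes, were among those 11, whereas *Gpr161*, *Evc* and *Evc2* had no K4me3 in any mouse. In all 3 mice of a genotype, K4me3 was called at 23 of 36 genes in WT, 27 in EZ, 28 in KR and 27 in KE, beside the 58%, 60.8%, 60% and 59.9% of all genes given above. The lower WT count rested on WT replicate 2, since WT replicates 1 and 3 both had K4me3 at 29 of the 36 genes, and at 61.5% of all genes.

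K27me3 was called in no mouse at 17 of the 36 genes, against 64.5% of all genes, and in WT replicate 2 and no other mouse at 8, against 8.1% of all genes. *Gpc3*, *Foxf2*, *Foxl1* and *Bmp4* were the 4 of 36 that had it in all 3 mice of at least 1 genotype, against 13.7% of all genes. They were again these 4 without the 3 mice that stood apart, against 15.8%. *Gpc3*, a glypican that competes for Hedgehog ligands, was called in all 3 WT and all 3 KE mice, with K4me3 as well in KE. It is on the X chromosome, and its K27me3 at the start was 0 kb in the 3 KR mice and EZ replicate 2, the mice with few K27me3 peaks on X, and 3.09 to 6.03 kb in the other 8. *Bmp4*, a signaling ligand, was called in 10 mice, all of EZ and KE included, and *Foxf2* and *Foxl1*, forkhead factors of the gut mesenchyme, in 9 and 8 mice, all of KE and all of KR respectively. *Foxl1*, like *Gli3*, had no K4me3 over the gene or 3 kb beyond it in any mouse. *Foxf2* had none within 3 kb of a start, but 0.657 to 1.18 kb elsewhere in the gene in all 12 mice.

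**Figure D5:**
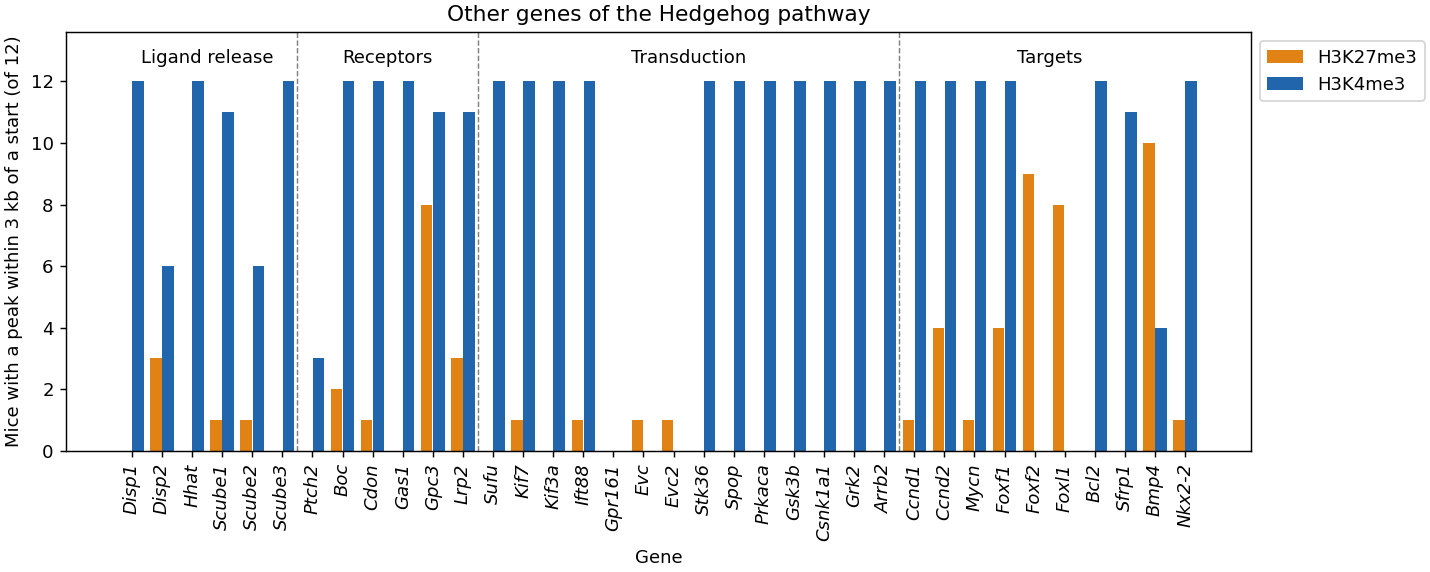
Number of mice (of 12) with a K27me3 peak (orange) or K4me3 peak (blue) within 3 kb of a start, for 36 other genes of the pathway in 4 classes. K4me3 is called in all 12 mice at 23 genes, and K27me3 in 8 or more mice at 4, *Gpc3*, *Foxf2*, *Foxl1* and *Bmp4*.

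Between genotypes, few of these genes had mice that did not overlap. For K27me3 over the locus there were none of 36 in EZ or KE against WT, *Disp2* higher and *Gpc3* lower in KR than in WT, and *Gpc3* higher in KE than in KR. For K4me3 at the starts, *Nkx2-2* was higher in EZ, KR and KE than in WT, *Csnk1a1* higher in EZ than in WT, *Stk36* lower in KE than in WT and *Ift88* lower in KE than in KR. At *Nkx2-2* the value was 9.6, 5.62 and 9.26 kb in WT and 9.69 to 10.5 kb in the other 9 mice. These counts of 0 to 2 of 36 stand beside the shares of all genes given above for the same comparisons. Without the 3 mice that stood apart, 0, 2, 2 and 3 of the 36 were separate for K27me3 in EZ, KR and KE against WT and in KE against KR. The shares of all genes were 4.19%, 10.6%, 8.67% and 10.3%. *Foxf2* was then added as higher in KE than in WT and KR, *Gpc3* as higher in KE than in WT and *Disp2* as lower in KE than in KR. For K4me3, 9, 10, 6 and 8 were then separate in EZ, KR and KE against WT and in KE against KR, beside the 14.7%, 24.6%, 22.5% and 24.6% of all genes, and *Nkx2-2* stayed higher in EZ, KR and KE than in WT.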

How the data were processed

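ChIP-Seq peak lists for K27me3 and K4me3 from 12 mice (24 lists) were used, and 12 input samples were not used here. The authors checked reads with FastQC, used Bowtie2 for alignment to mm10, and ran the histone mode of HOMER findPeaks on each ChIP sample with its input as background. No version is given in the sources used here. The deposited lists hold positions. Their score column, as deposited by the authors, holds 1 for every peak and was not used. No K27me3 peak was under 5001 bp and no K4me3 peak under 501 bp, and 31.1% to 42% of the K27me3 peaks of a mouse had exactly the least width.

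Positions were compared with GENCODE M21 (GRCm38, the same build), using all annotated transcript starts of protein-coding genes on 21 chromosomes. Covered length was counted within 3 kb of the starts, and over the gene body plus 3 kb. Values of 3 mice against 3 were called separate when no mouse of either group reached the range of the other, with exact permutation p-values, two-sided, over mice. Replicates are labelled as biological replicates. For K4me3 in KE against KR, deviations of same-numbered mice from their group means correlated at 0.51, 0.32 and 0.31 across genes, a likeness seen in the data and not in the labels. Replicate 1 stood apart in both groups, and whether the mice were paired was not tested. The code was tested on simulated peaks. Windows, overlaps, peak selection, merging, pairing and the mice used were varied, and K4me3 over the gene body and the omission of the 3 mice that stood apart were added after seeing the data, as were shares over autosomal genes. Named were the 9 genes, other pathway genes with K27me3 in all 3 mice of a genotype or with separate mice, and neighbors sharing a K27me3 peak. Other names were chosen as examples after their values were seen. The allele of KR and KE mice and 1 immune marker gene are not reported here. The rule for the 9 genes names them and uses no value, but genes and lists were chosen with earlier results of these data known. Python 3.11.15, numpy 2.4.6 and matplotlib 3.10.9 were used.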

Additional observations from a re-analysis of the deposited data

How the results depend on the processing

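The lists give no depth, so a peak that was not called may have been missed for lack of reads, and 3 mice a group limit every comparison. Under the other settings listed here, apart from those leaving out mice or measuring K4me3 over the locus, 89 counts stayed within 1.5 times the reported count and 15 did not. For all of these the cause was not tested. Starts with K27me3 in all 3 WT mice fell from 1 to 0 with a window of 1 kb and with equal numbers of the widest peaks, where starts with K4me3 in KR also fell from 7 to 3, against 4.08%, 4.82% and 56.1% of all genes. Peaks of equal width were then kept in genome order. A K27me3 window from 100 kb upstream gave 1 gene in EZ (*Gli3*) and 2 in KR (*Gli2* and *Gli3*), and 1 with both marks in KR, against 24.5%, 28% and 11.7% of all genes. Presence in at least 2 of 3 mice gave 7 K4me3 genes in WT, 1 K27me3 gene in KR and 1 with both marks there, against 62.1%, 13.3% and 3.49%. The single K4me3 gene separate in KE against KR became 0 with equal numbers of the widest peaks, with the gene model start and with peaks merged. Without each mouse in turn, the counts at starts ranged from 3 to 7 for K4me3 in WT, 0 to 1 for K27me3 in KR and 0 to 1 for both marks in KR, against 58.3% to 61.5%, 9.67% to 10.3% and 2.28% to 2.72% of all genes. The latter 2 rose without KR replicate 3, by *Gli2*, and the count for WT rose without WT replicate 2. Separate genes for K27me3 ranged from 0 to 1 in each of the 4 comparisons (*Gli3* without EZ replicate 1, KR replicate 2 or KE replicate 2 against WT, *Shh* without KR replicate 2 and *Gli2* without KR replicate 3 in KE against KR), among 2.7% to 8.22% of all genes. For K4me3 they ranged from 0 to 3 in EZ, 0 to 1 in KR and 0 to 2 in KE against WT, and from 1 to 3 in KE against KR, while 11% to 17.8%, 7.42% to 15.8%, 7.58% to 13.8% and 8.64% to 16.2% of all genes were separate. The highest came without WT replicate 1 (*Ihh*, *Gli2* and *Hhip*), KR replicate 2 (*Hhip*) or WT replicate 2 (*Gli1*), WT replicate 2 (*Ptch1* and *Gli2*), and KR replicate 1 (*Ptch1*, *Smo* and *Gli1*). Without the 3 mice that stood apart, K4me3 gave 7 genes at WT starts, and 1, 2, 2 and 3 separate genes in these 4 comparisons. With K4me3 over the locus, 1 gene, *Hhip*, was separate in EZ, in KR and in KE against WT, among the shares given in the text. With the replicate number as a block (replicate block), 1 gene each had K4me3 differences of 1 sign in EZ (*Gli2*), KR (*Hhip*) and KE (*Hhip*) against WT, among 17%, 9.52% and 11.1% of all genes. Deviations of same-numbered mice correlated between -0.42 and 0.31 for K27me3 and between -0.70 and 0.51 for K4me3 across genes. In no comparison but K4me3 in KE against KR did all 3 pairs exceed 0.1, and there the paired count was 1, as without pairing.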

Other observations

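Beside *Gli1*, the K4me3 peak at the start of the adjacent gene *Arhgap9*, a RhoGAP of blood cells, was chosen after its values were seen. It was 6.08 kb wide in WT replicate 2 and 5.83 kb in KR replicate 1, and 1.38 to 1.77 kb wide in the other 10 mice. These are the 2 mice with the longest K4me3 at the immune marker genes and with K27me3 at most Hedgehog starts. KE replicate 1, with 3.51 kb at the immune marker genes, had a 1.38 kb *Arhgap9* peak and K27me3 at 1 Hedgehog gene.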
